A study of Homo sapiens with 27 samples.

Results

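The 43 interferon-stimulated genes examined here were the 43 rows listed for this gene group in a table of 57165 genes, and each symbol matched exactly 1 Ensembl identifier. Transcripts were measured by RNA-seq in a pair of human triple negative breast cancer cell lines of mesenchymal character, SUM159 and MDA-MB-231, with 3 libraries in each of 9 groups (27 libraries, 15461200 to 21473757 estimated counts per library). In each line, wild type cells were untransduced and received no puromycin, whereas No gRNA cells carried a lentiviral vector for dCas9-KRAB (a nuclease-dead Cas9 fused to a repressor domain, expressed from the human ubiquitin C promoter and linked to puromycin resistance) without a guide and were selected with puromycin at 1.25 µg/mL in SUM159 and 0.75 µg/mL in MDA-MB-231. SUM159 gRNA 4 and All gRNA cells carried the same vector with 1 guide, or with a pool of 4 guides, against the ZEB1 promoter. In MDA-MB-231 the sample labels and the table's column names disagreed on which 3 targeted libraries had gRNA 4 and which had the pool, so the libraries titled gRNA 4 are called set 1 and those titled with the pool are called set 2. Run 1 held the SUM159 groups, and run 2 held the MDA-MB-231 groups and a second set of 3 SUM159 wild type libraries. The methods describe the replicates as individual clones, and the groups of transduced cells differ from wild type in the vector, dCas9-KRAB, puromycin and selection at once, which cannot be told apart.

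Interferon-stimulated genes are switched on when interferons bind their receptors and receptor-bound kinases activate a transcription factor complex that includes STAT2 and IRF9 and binds the interferon-stimulated response element (ISRE) in promoters. A subset, including the IFIT genes and RSAD2, can also be induced directly by IRF3 after RNA or DNA sensors detect foreign nucleic acid. The proteins bind viral RNA, block entry or budding, deplete nucleotides, attach the ubiquitin-like protein ISG15, or recruit lymphocytes. Levels are given in CPM (counts scaled to a common library size), which can be compared between libraries for 1 gene but not between genes. A member is said to have risen or fallen where limma's moderated test gave a Benjamini-Hochberg adjusted p below 0.05, and to be called by TREAT where limma's TREAT gave the same for a change exceeding 1 on the log2 scale.

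ZEB1, the guides' target, was listed at 83.6, 75.7 and 78.8 CPM in SUM159 wild type, 70.4, 77.3 and 73.3 in No gRNA, 4.54, 3.25 and 2.56 with gRNA 4 and 0.806, 0.375 and 1.02 with All gRNA. The MDA-MB-231 libraries had 73.8, 65.3 and 70.1 CPM in wild type, 105, 122 and 104 in No gRNA, 4.77, 5.54 and 5.78 in set 1 and 4.98, 3.75 and 5.48 in set 2. Every targeted library was thus below every untargeted library of its line, as labelled. The hormone receptor genes ESR1 and PGR reached no more than 0.185 and 0.959 CPM in any library. The growth factor receptor gene ERBB2 was at 38.05 to 72.9 CPM. Of the mesenchymal markers, VIM (vimentin) was at 1322 to 4314 CPM, while CDH2 (N-cadherin) was at 60.8 to 139 CPM in SUM159 and at most 1.90 CPM in MDA-MB-231. FN1 (fibronectin) moved with the groups in MDA-MB-231, at 248, 211 and 223 CPM in wild type, 1479, 1396 and 1289 in No gRNA, 610.1, 685 and 803 in set 1 and 391, 397 and 330.2 in set 2, and in SUM159 at 1563, 1521 and 1617 in wild type, 2310, 2240 and 2273 in No gRNA, 1482, 1658 and 1679 with gRNA 4 and 1485, 1354 and 1317 with All gRNA. Its part in the results was not tested.

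The ISRE was searched as GAAA, any 2 bases and GAAA, on both strands, in the RefSeq promoter windows (GRCh38.p14, 250 bases before to 50 after each start). Of the 43 members, 34 had a window, and 20 of them (58.8%) held the motif, compared with 996 of all 27305 windows (3.65%) and 10 of 36 windows (27.8%) of the other pathway genes described below. The 9 members without an entry were IRF7, DHX58, OAS2, OASL, IFIT2, IFITM2, MX2, USP18 and TRIM22. The windows below, with matches in capitals, are shown because they belong to members called by TREAT for the vector or for targeting and had a match before the start:
IFIT1, chr10:89392496-89392553, strand +: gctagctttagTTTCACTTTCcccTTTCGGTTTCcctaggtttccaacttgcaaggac
IFIT3, chr10:89327851-89327908, strand +: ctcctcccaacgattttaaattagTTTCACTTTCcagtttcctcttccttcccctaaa
HERC5, chr4:88457021-88457078, strand +: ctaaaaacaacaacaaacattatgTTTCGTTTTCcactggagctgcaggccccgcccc
ISG15, chr1:1013366-1013423, strand +: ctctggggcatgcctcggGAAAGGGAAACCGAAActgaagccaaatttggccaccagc
IFITM1, chr11:313976-314033, strand +: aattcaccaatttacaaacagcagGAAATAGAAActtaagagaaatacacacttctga
ISG20, chr15:88638923-88638980, strand +: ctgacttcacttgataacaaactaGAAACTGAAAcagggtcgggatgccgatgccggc
BST2, chr19:17405721-17405778, strand -: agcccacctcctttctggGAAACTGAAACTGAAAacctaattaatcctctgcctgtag

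These stretches are parts of the promoter windows, which held 3 matches for HERC5, 2 each for IFIT1, IFIT3, IFITM1, ISG15 and BST2 and 1 for ISG20. RSAD2, UBE2L6, CXCL11 and XAF1, also called by TREAT, had no match in their windows, which says only that these letters were not found there. The E-box CACCTG, a sequence bound by ZEB1, stood in 4 of 34 member windows (11.8%), those of STAT2, OAS3, ISG20 and EPSTI1, compared with 20.6% of all windows. With the vector in SUM159, the 20 members with an ISRE match had a median log2 fold change of 1.03 and the 13 tested members without one had 1.16. In MDA-MB-231 the medians were 0.61 for 20 members and 0.65 for 14.

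The first question was whether the lentiviral vector alone changed the interferon-stimulated genes, which was addressed by comparing No gRNA with wild type cells. In SUM159, the effector genes RSAD2, IFIT1, IFIT2, IFIT3, OASL and HERC5 rose most, from low levels to levels at which every No gRNA library exceeded every wild type library. Among 42 members tested, 10 were called higher by TREAT (1.04% of all 15147 genes tested were called higher) and 0 lower (0.489% of all genes). The moderated test found 29 members higher and 1 lower, compared with 21.0% and 21.9% of all genes, and the median log2 fold change was 1.11 for the members and 0.02 for all genes. Without a TREAT call in the lower direction, 17 members had an unadjusted TREAT p below 0.05 in either direction, and edgeR's glmTreat and DESeq2 at the same threshold called 13 and 11 higher and 0 lower.

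**Figure D1:**
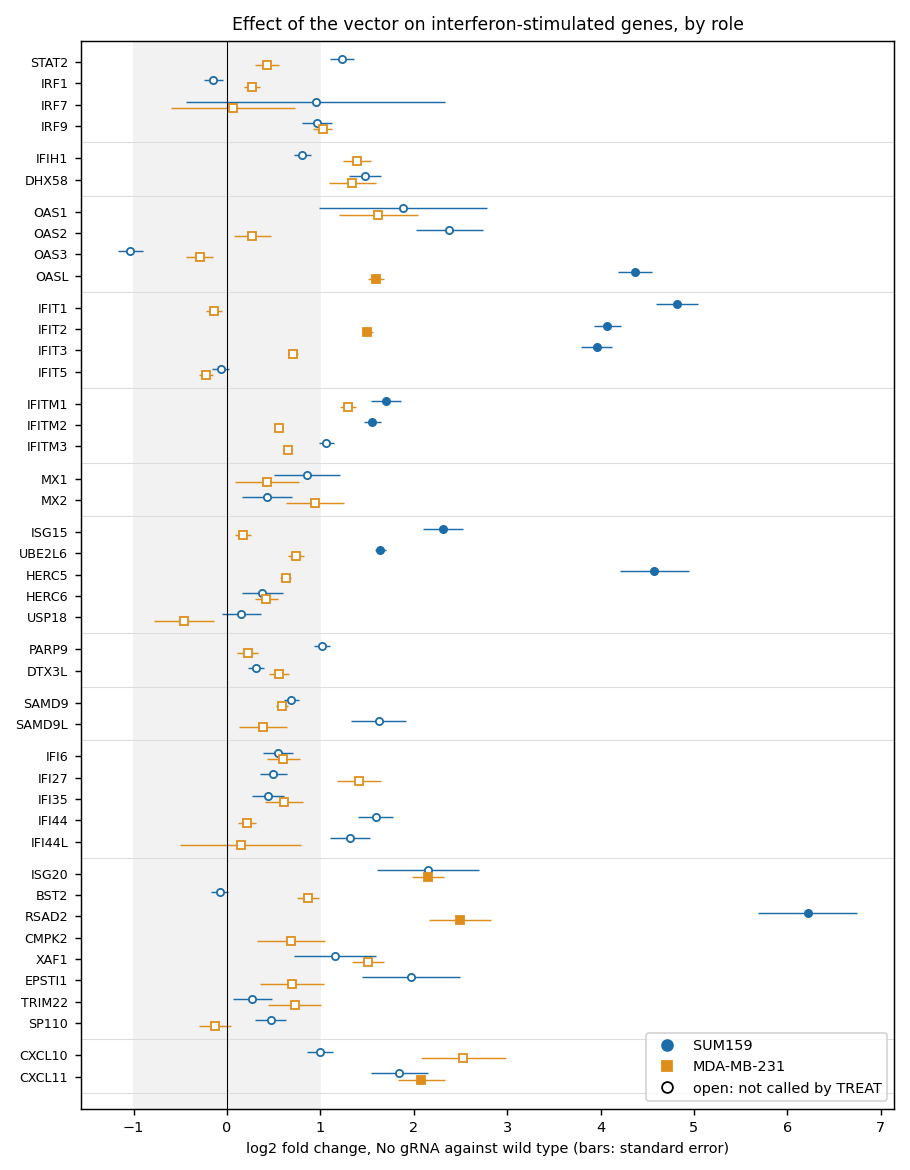
Points give the log2 fold change of No gRNA against wild type for each member in SUM159 (circles) and MDA-MB-231 (squares), with bars for the standard error, filled where TREAT called the member, and a grey band from -1 to 1. The 10 filled circles lie between 1.56 and 6.22, while the 5 filled squares lie between 1.501 and 2.49.

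RSAD2 (viperin, chr2:6865557-6898239, ENSG00000134321) makes a chain-terminating nucleotide that stalls viral polymerases. It was listed at 0.0963, 0.0983 and 0.339 CPM in SUM159 wild type libraries, 10.7 estimated counts in all, and at 10.8, 13.8 and 14.7 CPM in No gRNA. Its log2 fold change was 6.22 ± 0.531 (SE, n = 3, TREAT adjusted p = 0.000116), the largest among the members.

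The IFIT proteins bind viral RNA that lacks the host cap structure, and IFIT1, IFIT2, IFIT3 and IFIT5 lie together on chromosome 10. IFIT1 (chr10:89392546-89406487, ENSG00000185745) was at 0.545, 0.455 and 0.376 CPM in wild type and 13.6, 13.1 and 14.0 in No gRNA, a log2 fold change of 4.82 ± 0.223 (SE, n = 3, TREAT adjusted p = 8.16e-07). IFIT2 (chr10:89283694-89309271) was at 1.87, 1.35 and 1.44 CPM against 25.03, 27.6 and 26.98, a log2 fold change of 4.07 ± 0.148 (TREAT adjusted p = 2.13e-07). IFIT3 (chr10:89327307-89377473) moved from 1.82, 2.76 and 2.08 to 34.7, 34.0 and 35.0 CPM, a log2 fold change of 3.96 ± 0.168 (TREAT adjusted p = 7.06e-07). The 3 No gRNA libraries were alike for each of these genes and far above wild type. IFIT5, their neighbour, was at 16.6, 19.4 and 17.4 CPM in wild type and 17.3, 15.96 and 18.1 in No gRNA, and the ranges overlapped.

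OASL, a relative of the oligoadenylate synthetases that enhances RIG-I signalling, was at 2.13, 1.30 and 2.03 CPM in wild type and 35.4, 36.7 and 40.3 in No gRNA, a log2 fold change of 4.37 ± 0.178 (SE, n = 3, TREAT adjusted p = 4.27e-07). Of the synthetases, which make the activator of RNase L, OAS2 rose by a log2 fold change of 2.38 (moderated adjusted p = 0.000271) and OAS3 was the 1 member that fell, from 63.0, 62.4 and 51.0 to 32.4, 26.6 and 27.6 CPM, although it was at 19.3, 20.0 and 22.6 CPM in the second wild type set, that of run 2, against which it rose (0.48, moderated adjusted p = 0.0178). OAS1 was low in SUM159, at no more than 1.07 CPM in any library. The direction of OAS3 thus depended on the wild type set, whereas OASL and OAS2 rose against both.

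In the ISG15 system, ISG15 is attached to proteins by the conjugating enzyme UBE2L6 and the ligase HERC5. These 3 genes were called higher by TREAT (1.04% of all genes). HERC5 (chr4:88457119-88506163) was at 0.440, 0.192 and 0.136 CPM in wild type and 6.16, 6.70 and 5.48 in No gRNA, a log2 fold change of 4.57 ± 0.368 (SE, n = 3, TREAT adjusted p = 0.000121). ISG15 itself (chr1:1001138-1014540) was at 2.49, 1.76 and 2.57 against 9.40, 11.8 and 13.1 CPM, a log2 fold change of 2.32 ± 0.214 (TREAT adjusted p = 0.00409), and UBE2L6 had one of 1.64 (TREAT adjusted p = 6.59e-05). Against run 2 wild type, TREAT still called HERC5 (3.60), but not ISG15 (0.39) or UBE2L6 (0.55). USP18, which removes ISG15 and restrains the receptor, was at 2.04, 2.75 and 3.07 CPM in wild type and 3.15, 3.01 and 2.55 in No gRNA, with overlapping ranges. HERC6 did not pass either test.

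IFITM1, IFITM2 and IFITM3, membrane proteins that block the fusion of virus and host membranes, are near-identical neighbours on chromosome 11 whose short reads may have been shared, so their separate values are uncertain. IFITM1 was at 20.5, 29.1 and 29.4 CPM in wild type and 73.4, 86.8 and 96.9 in No gRNA, a log2 fold change of 1.70 ± 0.162 (SE, n = 3, TREAT adjusted p = 0.0367). Its TREAT call was lost when wild type replicate 1, 2 or 3 was left out (adjusted p = 0.209, 0.0732 and 0.0702) and without No gRNA replicate 2 or 3 (0.107 and 0.133). IFITM2 and IFITM3 rose by 1.56 and 1.06, and TREAT called only the former (adjusted p = 0.00366). Against run 2 wild type, at 311, 319.7 and 345 CPM, the IFITM3 effect was 0.02 (moderated adjusted p = 0.868). IFITM1 and IFITM2 had effects of 1.29 and 0.62 with that control, and TREAT called neither.

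Among the transcription factors, STAT2 and IRF9 rose by 1.23 and 0.96 (moderated adjusted p = 1.89e-05 and 0.000557), or 0.09 and 0.42 against run 2 wild type, where neither passed (0.544 and 0.0931), whereas IRF1 was at 44.7, 46.7 and 49.7 CPM in wild type and 43.1, 43.9 and 41.2 in No gRNA, and IRF7 did not exceed 1.70 CPM in any SUM159 library. Both RNA sensors rose, IFIH1 (MDA5) by 0.81 and DHX58 (LGP2) by 1.47, or by 1.14 and 0.57 against run 2 wild type. The chemokines CXCL10 and CXCL11, which attract T cells, rose by 1.00 and 1.85 (moderated adjusted p = 0.000139 and 0.000472). Both also rose against run 2 wild type, which had too few counts of them for a fold, so the size depended on the wild type set. CMPK2, a mitochondrial kinase beside RSAD2 in the genome, did not pass the filter in SUM159, with 0, 0.0310 and 0 CPM in wild type and 0.996, 1.04 and 0.399 in No gRNA.

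The remaining members are less well defined or act in other ways. Of the 5 IFI genes, 4 rose in SUM159 (21.0% of all genes) and 3 in MDA-MB-231 (26.2%). The largest rises were those of IFI44 (1.59) and IFI44L (1.32) in SUM159 and IFI27 (1.41) in MDA-MB-231, with moderated adjusted p = 4.05e-05, 0.000490 and 0.000349. PARP9 and DTX3L, which form a complex that modifies histones and viral proteins, rose in SUM159 by 1.01 and 0.31, and DTX3L in MDA-MB-231 by 0.55. SAMD9 rose in both lines (0.69 and 0.59) and its relative SAMD9L in SUM159 (1.62, moderated adjusted p = 0.00102). Of the MX GTPases, which trap viral nucleocapsids, MX2 rose in MDA-MB-231 (0.94, moderated adjusted p = 0.0241), and MX1 was not called in either line. XAF1 and BST2 rose in MDA-MB-231 (1.51 and 0.87, moderated adjusted p = 1.54e-05 and 5.40e-05), with 1.16 and -0.08 in SUM159, or -0.73 and 0.22 against run 2 wild type, where neither passed.

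In MDA-MB-231, the vector went with a rise led by RSAD2, the nuclease ISG20, the chemokine CXCL11, OASL and IFIT2. Of 43 members tested, TREAT called 5 higher (2.33% of all 15721 genes tested were called higher) and 0 lower (1.27%). The moderated test found 27 higher and 1 lower (IFIT5), compared with 26.2% and 27.6% of all genes, and the medians were 0.63 for the members and 0.00 for all genes. An unadjusted TREAT p below 0.05 was found for 9 members, and glmTreat and DESeq2 called 8 and 6 higher and 0 lower. The TREAT count ranged from 3, without wild type replicate 3, to 6, without No gRNA replicate 2.

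RSAD2 was at 3.76, 2.26 and 2.32 CPM in MDA-MB-231 wild type and 12.9, 17.5 and 17.8 in No gRNA, a log2 fold change of 2.49 ± 0.333 (SE, n = 3, TREAT adjusted p = 0.0160, or 0.0905 and 0.0958 without wild type replicate 2 or 3). ISG20, a nuclease that degrades viral RNA (chr15:88635670-88656483), was at 4.80, 2.68 and 4.49 against 18.4, 18.5 and 17.3 CPM, a log2 fold change of 2.15 ± 0.168 (TREAT adjusted p = 0.000853). CXCL11 (chr4:76033682-76041415) was at 0.513, 0.928 and 0.676 against 2.80, 2.90 and 3.78 CPM, a log2 fold change of 2.08 ± 0.255 (TREAT adjusted p = 0.0224, or 0.136, 0.117 and 0.0628 without wild type replicate 1, wild type replicate 3 or No gRNA replicate 3). For all 3 genes, the No gRNA libraries lay above every wild type library.

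OASL was at 10.6, 11.1 and 11.2 CPM in MDA-MB-231 wild type and 34.0, 34.4 and 35.4 in No gRNA (log2 fold change 1.60, standard error 0.0903, TREAT adjusted p = 0.00117), and IFIT2 at 26.8, 29.6 and 29.9 and 85.5, 83.9 and 85.3 (log2 fold change 1.501, standard error 0.0606, TREAT adjusted p = 0.000200). The replicates of both genes were close to one another. CXCL10 had a log2 fold change of 2.53, larger than any called, but its No gRNA libraries were spread over 4.20, 1.77 and 2.74 CPM and TREAT did not call it (adjusted p = 0.0806). IFIT1, the second strongest member in SUM159, was at 27.2, 27.7 and 26.8 CPM in wild type and 25.8, 23.4 and 28.3 in No gRNA, with overlapping ranges.

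**Figure D2:**
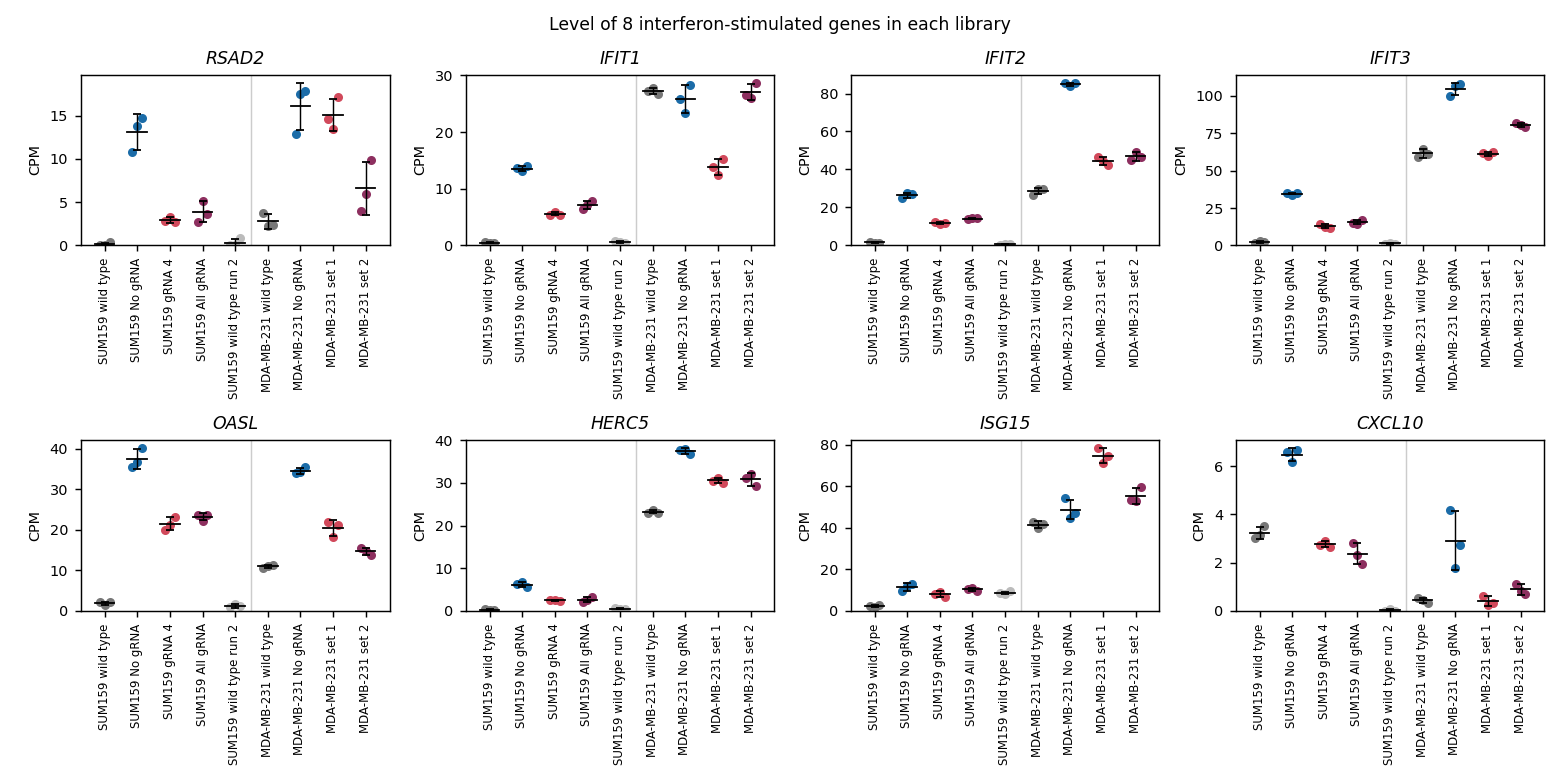
Each panel plots the CPM of 1 gene on a linear axis from 0, with points for the 3 libraries of each of 9 groups and black lines for the mean and its standard deviation. In SUM159 the No gRNA points stand above wild type in all 8 genes, whereas IFIT1 in MDA-MB-231 is at 26.8 to 27.7 CPM in wild type and 23.4 to 28.3 CPM in No gRNA.

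A rise found by the moderated test in both lines was shared by 20 members, among them STAT2, IRF9, IFIH1, DHX58, IFIT2, IFIT3, OASL, HERC5, UBE2L6, all 3 IFITM genes, RSAD2, ISG20, CXCL10 and CXCL11. Of all genes tested in both lines, 9.29% rose in both. With run 2 wild type as the SUM159 control, 15 of the 20 held and STAT2, IRF9, IFITM3, ISG20 and IFI6 did not. The 20 were 69.0% of those that rose in SUM159 and 74.1% of those that rose in MDA-MB-231. CMPK2, IFIT5, IRF7, MX1, OAS3, TRIM22 and USP18 were found higher by it in neither line, and CMPK2 was tested only in MDA-MB-231.

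The vector effects of the lines were then compared in 1 fit of 24 libraries, in which line and sequencing run coincide. TREAT called 7 members with a smaller effect in MDA-MB-231 (0.599% of all 17182 genes were called in this direction) and 0 with a larger one (2.03%). An unadjusted TREAT p below 0.05 was found for 9 members. The differences were -4.89 for IFIT1, -3.88 for HERC5, -3.66 for RSAD2, -3.19 for IFIT3, -2.71 for OASL, -2.51 for IFIT2 and -2.08 for ISG15 on the log2 scale, with TREAT adjusted p values from 2.22e-10 to 0.0267. By the moderated test 16 members had a smaller and 6 a larger effect in MDA-MB-231, compared with 17.4% and 18.8% of all genes, and the larger ones included BST2 (difference 1.01), which encodes tetherin, a protein that holds budding virions at the cell surface. When run 2 wild type, in the same run as MDA-MB-231 wild type, replaced the SUM159 control, TREAT called 11 smaller (2.15% of all genes) and 1 larger (2.94%), which was XAF1 (2.28, TREAT adjusted p = 0.0157). IFIT1, IFIT2, IFIT3, OASL and HERC5 were called with either control (run 2 differences -2.93 to -4.43), whereas RSAD2 (-3.49, TREAT adjusted p = 0.0526) and ISG15 (-0.18, TREAT adjusted p = 1) were not. The sign of the difference turned for CXCL10, IFITM3, OAS3, STAT2 and UBE2L6, which had passed the moderated test. For CXCL10, and for CXCL11 and CMPK2 among the 11, run 2 wild type had too few counts for a fold. The sizes of these 3 differences are therefore not defined. OAS2 (11.8 estimated counts in all in run 2 wild type) and RSAD2 (15.5, and 10.7 in run 1) were also scarce, so their sizes are imprecise.

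The levels before transduction differed between the lines, as shown by the wild type cells of run 2, the only groups of both lines in 1 run. TREAT called 16 members lower in SUM159 than in MDA-MB-231 (16.9% of all 16473 genes were called lower) and 3 higher (11.8%). Those lower included IFIT1, at 0.810, 0.680 and 0.470 CPM in SUM159 and 27.2, 27.7 and 26.8 in MDA-MB-231 (log2 difference -5.39, standard error 0.256). HERC5 was at 0.575, 0.426 and 0.426 against 23.1, 23.8 and 23.1 CPM, and IFIT3 at 1.19, 1.52 and 1.20 against 59.0, 64.6 and 61.0. All SUM159 No gRNA libraries (run 1) were below every untransduced MDA-MB-231 library for IFIT1, IFIT3 and HERC5, and for IFIT2 the ranges overlapped. The 3 members higher in SUM159 were BST2, DHX58 and DTX3L.

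SUM159 wild type cells also differed between runs. Comparing run 2 with run 1, TREAT called 1 member higher (3.56% of all 15460 genes tested), which was ISG15, and 3 lower (2.90%), which were OAS3, CXCL10 and CXCL11. ISG15 was at 2.49, 1.76 and 2.57 CPM in run 1 and 8.30, 8.17 and 9.28 in run 2 wild type cells, the latter just below the 9.40, 11.8 and 13.1 CPM of No gRNA. CXCL10 was at 3.01, 3.16 and 3.51 CPM in run 1, and run 2 had 0, 0.0626 and 0 CPM, too few counts for a fold. With run 2 wild type as the control for the vector effect, 12 members were called higher by TREAT (1.92% of all genes). RSAD2, IFIT1, IFIT2, IFIT3, OASL and HERC5 were called with either control, at log2 fold changes of 3.60 to 6.03 with the wild type of run 2. ISG15, IFITM1, IFITM2 and UBE2L6 were not, with 0.39, 1.29, 0.62 and 0.55 (TREAT adjusted p = 1, 0.525, 1 and 1), and OAS2, SAMD9L, IFI44, IFI44L, CXCL10 and CXCL11 were called in their place. By the moderated test 29 members rose against run 2 wild type (22.8% of all genes) and 0 fell (22.9%), and 23 of them had also risen against run 1. IFI6, IFITM3, IRF9, ISG15, ISG20 and STAT2 rose against run 1 alone, and HERC6, IFI35, MX1, OAS3, TRIM22 and USP18 against run 2 alone.

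The second question was whether loss of ZEB1 changed these genes, which was addressed by comparing targeted with No gRNA cells of the same line. These groups also differ in guide and in separate transduction and selection, which cannot be told apart from loss of ZEB1. No member was called by TREAT in SUM159 in either direction. With gRNA 4, 0.297% and 0.0924% of all genes were called higher and lower by TREAT, and 4 members had an unadjusted TREAT p below 0.05, while glmTreat and DESeq2 each called 1 member lower. With All gRNA the shares of all genes were 0.330% and 0.0660%, 3 members had an unadjusted TREAT p below 0.05, and glmTreat called 1 member lower and DESeq2 0. By the moderated test, 13 of 42 members fell and 1 rose with gRNA 4 (4.91% and 6.11% of all genes), and 13 fell and 0 rose with All gRNA (4.89% and 5.93%), where 22 had an unadjusted moderated p below 0.05. The median log2 fold change was -0.28 with gRNA 4 and -0.33 with All gRNA, and 0.00 for all genes in both. Both comparisons share their No gRNA libraries with each other and with the vector comparison, so the falls are not independent of the rises above.

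RSAD2 was at 2.79, 3.29 and 2.75 CPM with gRNA 4 and 2.76, 5.16 and 3.68 with All gRNA, below the 10.8, 13.8 and 14.7 of No gRNA and above wild type. Its log2 fold change was -2.14 ± 0.233 (moderated adjusted p = 9.96e-05, TREAT adjusted p = 0.0502) with gRNA 4 and -1.78 ± 0.215 (moderated adjusted p = 0.000235) with All gRNA. SAMD9L, a translation inhibitor that restrains poxviruses, was at 9.58, 19.8 and 13.8 CPM in No gRNA, 5.73, 4.37 and 4.52 with gRNA 4 and 2.13, 3.93 and 3.32 with All gRNA. It had log2 fold changes of -1.51 and -2.16 (moderated adjusted p = 0.00735 and 0.00161), and its targeted libraries overlapped the run 1 wild type range (3.08, 5.70 and 4.92 CPM). Run 2 wild type was at 1.04 to 1.67 CPM, below every targeted library.

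CXCL10 was at 2.73, 2.90 and 2.67 CPM with gRNA 4 and 2.82, 2.31 and 1.95 with All gRNA, against 6.60, 6.16 and 6.68 in No gRNA and 3.01, 3.16 and 3.51 in wild type. Its log2 fold changes were -1.23 and -1.46 (moderated adjusted p = 0.000230 and 8.00e-05), and all targeted libraries were below all wild type libraries of run 1. IFIT1, IFIT2 and IFIT3 fell while staying far above wild type, whereas IFIT5 was at 15.7, 14.7 and 14.6 CPM with gRNA 4 and 13.5, 13.7 and 14.98 with All gRNA, lower than in wild type (-0.26 and -0.34, moderated adjusted p = 0.0363 and 0.00954). IFIT1 was at 5.44, 5.96 and 5.41 CPM with gRNA 4 and 6.40, 7.15 and 7.81 with All gRNA (log2 fold changes -1.28 and -0.93). IFIT2 was at 12.3, 11.4 and 11.6 and 13.7, 14.3 and 14.2 CPM (log2 fold changes -1.18 and -0.91), and IFIT3 at 14.6, 12.6 and 11.7 and 15.3, 14.3 and 17.2 (log2 fold changes -1.43 and -1.15). The targeted libraries of IFIT1, IFIT2 and IFIT3 did not overlap No gRNA or wild type, with moderated adjusted p values of 0.000145 or less. HERC5 was at 2.58, 2.52 and 2.29 and 2.07, 2.55 and 3.16 CPM, with log2 fold changes of -1.30 and -1.24 (moderated adjusted p = 0.00126 and 0.00173).

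CXCL11, at 3.84, 3.58 and 4.11 CPM in No gRNA and 2.34, 1.30 and 2.49 with gRNA 4, fell with that guide (-0.96, moderated adjusted p = 0.0399) and IFI44L, a relative of IFI44 with a role in antiviral feedback, fell with All gRNA, from 9.20, 9.79 and 11.2 to 4.06, 6.55 and 5.21 CPM (-0.95, moderated adjusted p = 0.0134). IRF1, a transcription factor that neither test called with the vector in SUM159, was at 20.6, 27.2 and 20.1 CPM with gRNA 4 and 29.9, 26.1 and 23.3 with All gRNA, below all wild type and No gRNA libraries, with log2 fold changes of -0.94 and -0.70 (moderated adjusted p = 0.000308 and 0.00216). The 1 member that rose was IFITM2 with gRNA 4 (0.43, moderated adjusted p = 0.00274). Between All gRNA and gRNA 4, limma called 0 of 42 members by TREAT or by the moderated test (0.561% of all genes were higher and 0.383% lower by the latter), with 0 and 9 members at an unadjusted p below 0.05.

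**Figure D3:**
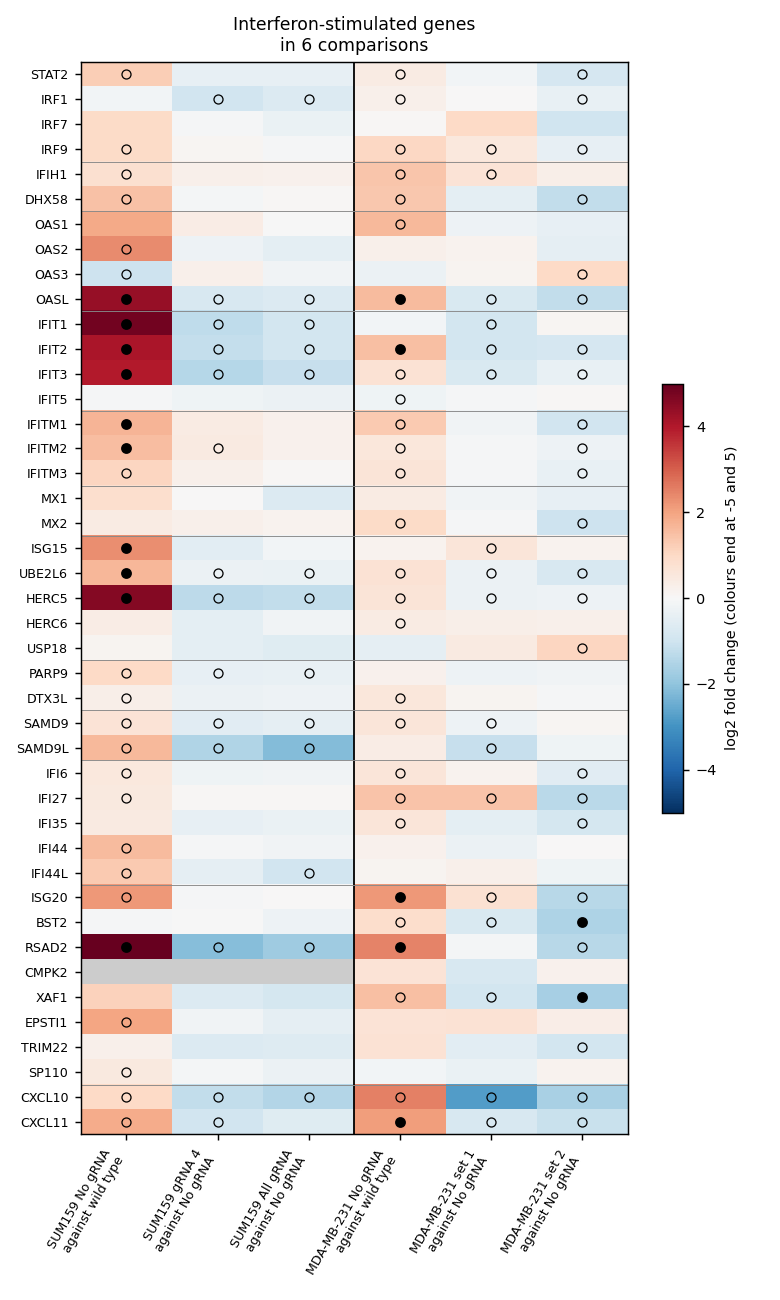
Colours give the log2 fold change of the 43 members (rows, in order of role) in 6 comparisons (columns), with filled circles where TREAT called the member, open circles where only the moderated test did, and grey where CMPK2 was not tested. The strongest red is in the SUM159 vector column, from OASL to RSAD2, and the targeted columns are mostly pale blue, the lowest value being the -2.80 of CXCL10 in MDA-MB-231 set 1.

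In MDA-MB-231, set 1 and set 2 differed from No gRNA in opposite directions for some members, among them IFI27 and ISG20. In set 1, TREAT called 0 members higher (1.10% of all genes) and 0 lower (0.369%), 2 had an unadjusted TREAT p below 0.05, and glmTreat and DESeq2 each called 1 lower. The moderated test found 5 higher and 12 lower, compared with 20.4% and 17.3% of all genes. In set 2, TREAT called 2 lower (2.40% of all genes), BST2 and XAF1, and 0 higher (1.74%), 4 had an unadjusted TREAT p below 0.05, and glmTreat and DESeq2 called 3 and 1 lower and 0 higher. There the moderated test found 23 lower and 2 higher, compared with 25.1% and 27.3% of all genes. The medians were -0.18 in set 1 and -0.39 in set 2, against -0.01 for all genes in both.

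XAF1, a pro-apoptotic protein, was at 10.1, 9.94 and 10.3 CPM in No gRNA, 5.21, 4.99 and 5.71 in set 1 and 3.36, 3.18 and 2.99 in set 2, the last within the wild type range (3.53, 4.51 and 2.47). Its log2 fold change was -0.94 in set 1 (standard error 0.153, moderated adjusted p = 0.000578) and -1.66 in set 2 (0.175, TREAT adjusted p = 0.0398). BST2 (chr19:17402939-17405630) was at 28.2, 30.6 and 28.1 CPM in No gRNA, 15.1, 18.5 and 18.4 in set 1 and 9.51, 8.54 and 12.1 in set 2, with log2 fold changes of -0.75 and -1.54 (TREAT adjusted p = 0.0202 for set 2). Each was below every No gRNA library in both sets. Leaving out 1 library left XAF1 uncalled each time (TREAT adjusted p = 0.0844 to 0.165), and BST2 was uncalled without No gRNA replicate 2 or set 2 replicate 1 or 2 (0.0740, 0.104 and 0.136).

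CXCL10 was at 0.617, 0.239 and 0.325 CPM in set 1 and 1.13, 0.815 and 0.709 in set 2 against 4.20, 1.77 and 2.74 in No gRNA, with log2 fold changes of -2.80 ± 0.487 (moderated adjusted p = 0.000879) and -1.60 ± 0.383 (moderated adjusted p = 0.00421). It was the member that fell most in set 1. IFI27, a mitochondrial protein, was at 8.92, 5.17 and 6.67 CPM in No gRNA, 18.6, 17.9 and 17.4 in set 1 and 2.33, 2.51 and 3.13 in set 2, and ISG20 at 18.4, 18.5 and 17.3, 31.8, 29.3 and 32.2 and 6.67, 7.43 and 6.64. They rose in set 1, by 1.41 and 0.78, and fell in set 2, with log2 fold changes of -1.34 and -1.37 (moderated adjusted p = 3.74e-05, 0.000156, 0.000479 and 1.04e-05). They were also the 2 members TREAT called lower in set 2 than in set 1 (1.86% of all genes), by a log2 fold change of -2.75 and -2.15 (adjusted p = 0.000226 and 0.000191), and the moderated test found 20 lower and 8 higher (26.3% and 25.2% of all genes).

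IFIT1, at 13.9, 12.5 and 15.3 CPM, and SAMD9L, at 5.87, 5.91 and 6.49 CPM, fell in set 1 (-0.90 and -1.13, moderated adjusted p = 3.34e-05 and 0.0101), whereas in set 2 IFIT1 was at 26.5, 26.1 and 28.8 CPM, overlapping No gRNA. IFIT2 was at 46.4, 44.3 and 42.6 CPM in set 1 and 44.8, 49.2 and 46.6 in set 2, with log2 fold changes of -0.94 and -0.85, and CXCL11 was at 2.01, 1.82 and 1.61 and 1.41, 1.56 and 1.35 CPM, with -0.79 and -1.10. Both genes thus fell in each set. In set 2 further falls were those of RSAD2 (-1.38, libraries at 3.95, 5.90 and 9.88 CPM), DHX58 (-1.25, 1.70, 1.66 and 2.04 CPM) and OASL (-1.23, 15.4, 14.8 and 13.8 CPM), with moderated adjusted p values of 0.00131 or less. The members that rose were IFI27, ISG20, IFIH1, ISG15 and IRF9 in set 1, and USP18 (1.09) and OAS3 (0.99) in set 2.

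The mean effect of targeting was compared between the lines in the fit of 24 libraries. TREAT called 0 members in either direction, and 0 had an unadjusted TREAT p below 0.05, while the moderated test found 10 with a higher and 8 with a lower effect in MDA-MB-231 (12.4% and 13.0% of all genes). RSAD2 was among the former, with a difference of 1.21, and BST2 among the latter, with -1.02 (moderated adjusted p = 0.00428 and 1.48e-05).

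The targeted cells were also set against wild type. TREAT called 10 higher with gRNA 4 (1.74% of all genes) and 10 with All gRNA (1.66%) in SUM159, against run 1 wild type. Those wild type libraries also served in the vector comparison. Both lists held RSAD2, IFIT1, IFIT2, IFIT3, OASL, HERC5, IFITM1, IFITM2 and UBE2L6, plus IFITM3 with gRNA 4 and ISG15 with All gRNA. Run 2 wild type had IFITM3 at 311 to 345 CPM, against 356 to 422 with gRNA 4. It had ISG15 at 8.17 to 9.28 CPM, against 9.58 to 10.8 with All gRNA. RSAD2 had log2 fold changes of 4.08 and 4.44 and IFIT1 of 3.54 and 3.89 in these comparisons. In MDA-MB-231, TREAT called 5 higher in set 1 (5.04% of all genes), IFI27, IFIH1, IRF9, ISG20 and RSAD2, and 1 in set 2 (1.22%), a share of the 43 members near that of all genes. The sensor IFIH1 was called in both, with log2 fold changes of 2.09 and 1.67 (TREAT adjusted p = 0.000150 and 0.0266), and its libraries were at 5.23, 4.80 and 6.07 CPM in wild type, 23.96, 23.5 and 24.3 in set 1 and 19.6, 18.5 and 15.2 in set 2.

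The summed level of the 43 members was highest in the No gRNA group of each line, although 2 gRNA 4 libraries exceeded the lowest No gRNA library in SUM159. It was 753.8, 761.5 and 769.3 CPM in SUM159 wild type of run 1, 1328, 1387 and 1427 in No gRNA, 1257, 1341 and 1333 with gRNA 4 and 1192, 1221 and 1189 with All gRNA. SUM159 wild type of run 2 was higher than that of run 1, at 879.3, 916.2 and 946 CPM. The MDA-MB-231 sums were 917.3, 911.9 and 906.0 CPM in wild type, 1468, 1442 and 1470 in No gRNA, 1356, 1360 and 1305 in set 1 and 1151, 1133 and 1151 in set 2. IFITM3 alone gave 19.5% to 36.4% of this sum, so it weighs the members by their read counts.

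**Figure D4:**
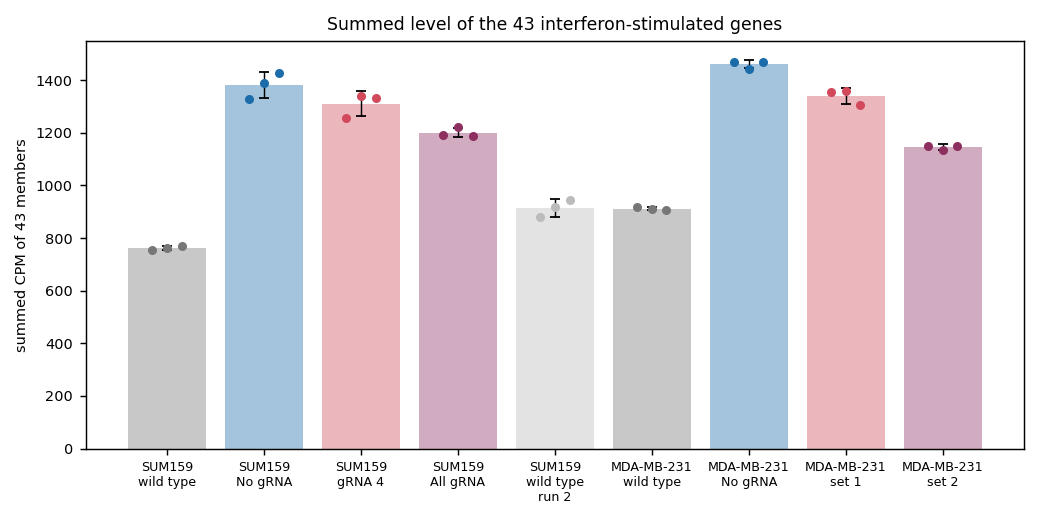
Bars give the mean summed CPM of the 43 members in each group on an axis from 0, with points for the 3 libraries and error bars for the standard deviation. No gRNA is the highest group in each line, at 1328 to 1427 CPM in SUM159 and 1442 to 1470 CPM in MDA-MB-231.

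The other genes of the pathway were examined in lists by role. Of 9 interferon genes, IFNA1, IFNA2, IFNB1, IFNE and IFNG were at 0 in all 27 libraries, and none passed the filter in either line. IFNL1, a type III interferon, had 27.1 estimated counts in set 1 (0.617, 0.716 and 0.325 CPM), 11.03 in set 2, 5.89 in SUM159 No gRNA and 4.05 in MDA-MB-231 No gRNA.

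With the vector in SUM159, the moderated test found 1 of 6 interferon receptor genes higher and 1 lower, and 4 of 11 sensors and adaptors higher and 3 lower, beside 21.0% and 21.9% of all genes. Against run 2 wild type 4 receptor genes rose and 0 fell, and 7 sensors and adaptors rose and 2 fell (22.8% and 22.9% of all genes), and IFNGR1, CGAS and IKBKE turned from a fall to a rise. In MDA-MB-231, 2 receptor genes rose, and 4 sensors and adaptors rose and 4 fell, beside 26.2% and 27.6% of all genes. STING1, the adaptor of DNA sensing, was called by TREAT, at 20.9, 26.8 and 26.1 CPM in wild type and 70.7, 72.6 and 76.8 in No gRNA (log2 fold change 1.52, adjusted p = 0.00282), and was lower in set 2 (-1.34, TREAT adjusted p = 0.0306). RIGI, the sensor of viral RNA ends, rose with the vector in both lines, by 0.69 and 0.36 (moderated adjusted p = 3.20e-05 and 3.07e-05). Its SUM159 effect against run 2 wild type was 1.89, which TREAT called (adjusted p = 0.00012). Of the 3 restraints of signalling, 2 rose in SUM159 (21.0% of all genes) and 1 rose and 2 fell in MDA-MB-231 (26.2% and 27.6%). SOCS3 rose in both lines (0.64 and 0.28, and 1.52 in SUM159 against run 2 wild type), and PIAS1 fell in MDA-MB-231 (-0.47). SOCS1 fell in MDA-MB-231 (-0.90, moderated adjusted p = 0.0142), and in SUM159 its effect was 1.15 against run 1 wild type and -0.07 against run 2 (moderated adjusted p = 0.000661 and 0.790).

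Of 4 tested genes that respond mainly to interferon-gamma, GBP2, a GTPase that attacks pathogen vacuoles, was called by TREAT with the vector in MDA-MB-231 and in both targeted sets. It was at 5.77, 5.63 and 5.72 CPM in MDA-MB-231 wild type, 47.0, 51.2 and 45.4 in No gRNA, 16.6, 14.1 and 16.01 in set 1 and 9.51, 6.35 and 8.91 in set 2. Its log2 fold changes were 3.00 with the vector and -1.62 and -2.55 with targeting (TREAT adjusted p = 2.22e-06, 0.00538 and 8.09e-06). With the vector in SUM159, TREAT did not call GBP2 against run 1 wild type. It did against run 2 wild type (3.64, TREAT adjusted p = 1.38e-05). CIITA, the switch for MHC class II genes, was lower in set 1 (-2.51, TREAT adjusted p = 0.000401). CXCL9 was at 0 in every library.

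For the 6 NF-kB targets the direction in SUM159 depended on the wild type set. Against run 1 wild type 4 fell and 0 rose by the moderated test (21.9% and 21.0% of all genes), and TREAT called the chemokine gene CCL20 lower (0.489%), whereas against run 2 wild type 5 rose and 0 fell (22.8% and 22.9%), with CCL20 at 2.74, TNFAIP3 at 2.12, NFKBIA at 1.35, NFKB2 at 0.64 and BIRC3 at 0.22. In MDA-MB-231 all 6 rose (26.2%), and TREAT called CCL20, TNFAIP3 (A20, which restrains NF-kB), RELB and NFKB2 higher (2.33%). CCL20 was at 35.3, 33.9 and 36.0 CPM in SUM159 wild type, 5.10, 6.02 and 5.82 in No gRNA, 35.5, 33.4 and 36.1 with gRNA 4 and 19.0, 19.9 and 20.7 with All gRNA. The MDA-MB-231 values were 1.05, 1.01 and 1.17 CPM in wild type, 8.46, 7.62 and 7.50 in No gRNA, 2.77, 1.82 and 1.79 in set 1 and 0.910, 0.735 and 0.486 in set 2. Every No gRNA library lay below the run 1 wild type and targeted libraries in SUM159 and above both in MDA-MB-231. Run 2 wild type was at 1.10, 0.393 and 1.23 CPM, below No gRNA, and TNFAIP3 likewise was at 228, 241 and 260.0 CPM in run 1 wild type, 93.7, 102 and 118 in No gRNA and 30.4, 19.5 and 23.1 in run 2 wild type. The log2 fold changes of CCL20 with the vector were -2.64 and 2.78, and those with targeting 2.62 (gRNA 4), 1.82 (All gRNA), -1.90 (set 1) and -3.44 (set 2), each called by TREAT (adjusted p = 0.0171 or less). TNFAIP3, RELB and NFKB2 had log2 fold changes of 1.52, 1.48 and 1.29 with the vector in MDA-MB-231, where TNFAIP3 went from 65.9, 52.8 and 64.7 to 179, 198 and 171 CPM.

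**Figure D5:**
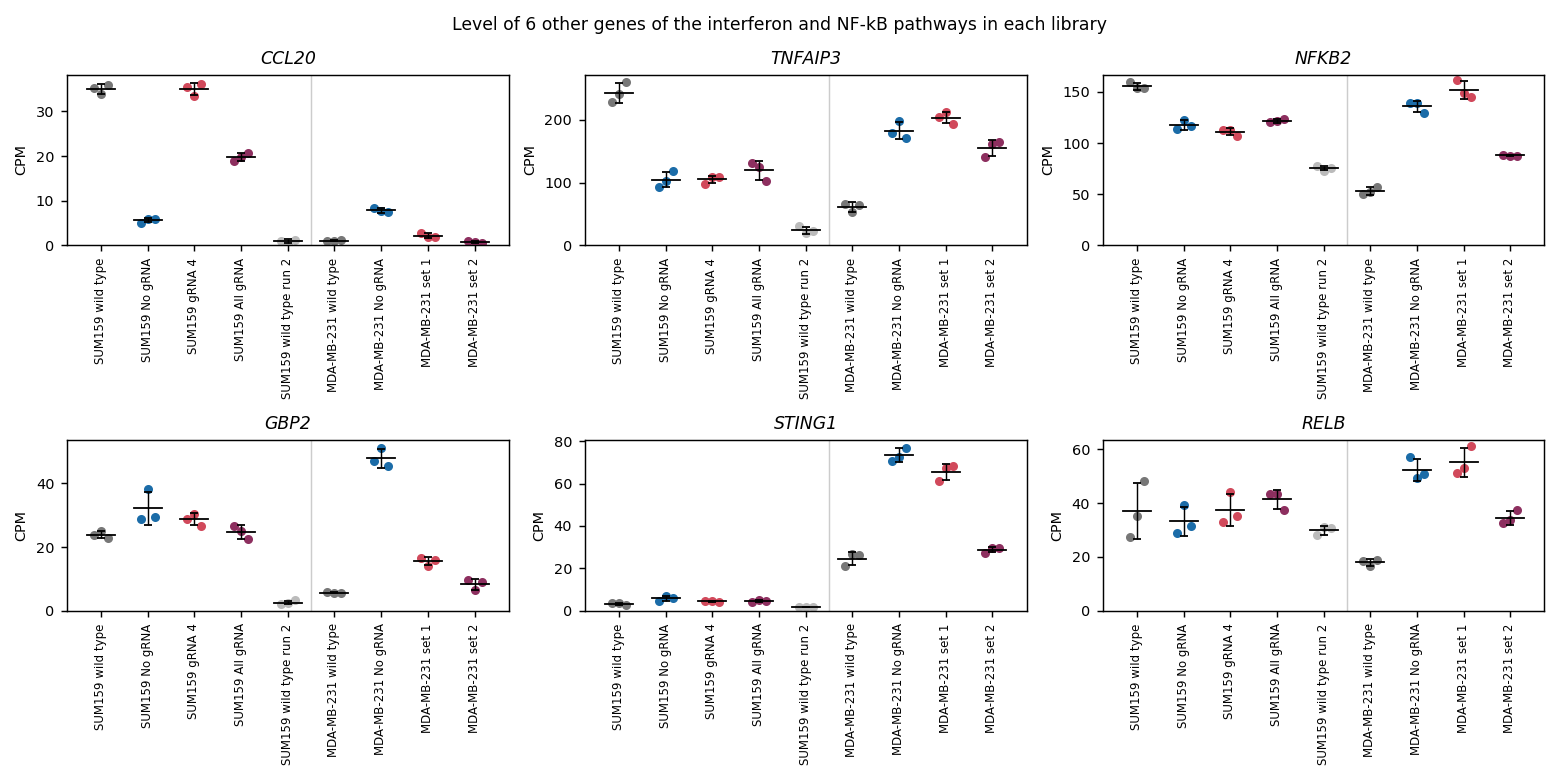
Each panel plots the CPM of 1 pathway gene on a linear axis from 0 in the 9 groups of 3 libraries, with black lines for the mean and standard deviation. CCL20 is at 5.10 to 6.02 CPM in SUM159 No gRNA against 33.9 to 36.0 in run 1 wild type, and at 7.50 to 8.46 CPM in MDA-MB-231 No gRNA against 1.01 to 1.17 in wild type.

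Transcripts of other cell types were looked for with 6 immune cell markers. PTPRC, CD3E, MS4A1 and NKG7 did not exceed 0.294 CPM in any library. CD68, which breast cancer cells also express, gave 92.2% to 99.5% of the summed marker level, and the sum was 11.4, 10.7 and 8.54 CPM in SUM159 wild type and 20.1, 19.3 and 17.3 in No gRNA, and 107.2, 103.2 and 109.5 in MDA-MB-231 wild type and 179.0, 174.5 and 165.1 in No gRNA. CD14 rose with the vector by 1.94 in MDA-MB-231 (moderated adjusted p = 0.000192), and in SUM159 its effect was 2.99 against run 1 wild type and -0.22 against run 2 (moderated adjusted p = 0.000830 and 0.610), at no more than 5.48 CPM. It fell with gRNA 4 (-1.52), in set 1 (-2.30) and in set 2 (-2.42), with moderated adjusted p = 0.0442, 0.000207 and 8.56e-05. The All gRNA value was -1.19 on the log2 scale (moderated adjusted p = 0.0884). The part of these markers in the results was not tested, while PTPRC, which marks leukocytes, was near 0 in every library. The sum was 21.6 to 24.3 CPM in the targeted SUM159 libraries, 29.1 to 33.6 in run 2 wild type, 157.5 to 160.5 in set 1 and 66.2 to 68.3 in set 2. In such bulk samples more cells expressing a gene and more RNA per cell cannot be told apart.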

How the data were processed

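Per the labels and the study's methods, the authors sequenced RNA as 50-base single-end reads, quantified transcripts with Salmon and deposited gene-level estimated counts (length-scaled TPM, made with tximport, GRCh38 in the submitters' processing notes). The annotation, strand setting and Salmon version are not given in the sources used here. Estimated counts, rounded to whole numbers for edgeR and DESeq2, were scaled by TMM and fitted per line (12 libraries) with voom in limma 3.58.1 (edgeR 4.0.16, R 4.3.3), with genes kept by filterByExpr at a minimum count of 10. TREAT against a log2 fold change of 1 was the main test, the moderated test against 0 the second, and Benjamini-Hochberg adjustment ran over all genes tested. DESeq2 1.42.0 and edgeR's quasi-likelihood tests were alternatives. CPM used TMM factors over all 27 libraries. The limma p-values rest on the spread between the 3 libraries within groups, estimated over all groups of a fit and moderated across genes. Differences between runs are not part of that spread. Members, roles and pathway lists were chosen with earlier results of these data known. Full values were given for up to 8 members per comparison with the largest absolute log2 fold change among those called by TREAT, or by the moderated test where TREAT called fewer than 3. Of 57165 Ensembl identifiers, 56347 matched a symbol in the reference gene table. Gene positions are from GENCODE 44 and promoter sequences from RefSeq. Paralogs (IFIT, IFITM, OAS, MX, HERC and SAMD9 families) may share reads where their sequences are alike. The MDA-MB-231 targeted libraries were not assigned to a guide, because their labels conflict. 1 list of pathway genes is not reported here.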

Additional observations from a re-analysis of the deposited data

Results flagged for a closer look

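The vector effect differed between SUM159 and MDA-MB-231 by limma's TREAT on the interaction for 7 members and for 5 pathway genes, with line and sequencing run coinciding. The differences (MDA-MB-231 minus SUM159, log2 scale) were -4.89 for IFIT1, -3.88 for HERC5, -3.66 for RSAD2, -3.19 for IFIT3, -2.71 for OASL, -2.51 for IFIT2 and -2.08 for ISG15. For ISG15 the SUM159 effect itself was smaller with the wild type libraries of run 2 (0.39) than with those of run 1 (2.32). With run 2 wild type as the SUM159 control, chosen after seeing the data, TREAT no longer called RSAD2 (-3.49, adjusted p = 0.0526) and ISG15 (-0.18, adjusted p = 1) and still called the other 5.

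With run 1 wild type as the SUM159 control, larger effects in MDA-MB-231 were found for NFKB2 (1.77), IFNGR1 (1.89), GBP2 (2.66), TNFAIP3 (2.82) and CCL20 (5.48). With run 2 wild type the differences were 0.70 for NFKB2, 0.32 for IFNGR1, -0.60 for GBP2, -0.55 for TNFAIP3 and 0.09 for CCL20, and TREAT called none of the 5 (adjusted p = 1 for each, with a moderated adjusted p of 3.44e-07, 0.00610, 0.0893, 0.0302 and 0.882). With that control TREAT called RIGI (-1.49, adjusted p = 0.00134) and IRF3 (1.46, adjusted p = 0.0174), which it had not called with run 1 wild type. For CCL20, TNFAIP3 and GBP2, SUM159 wild type cells of run 1 (35.3, 33.9 and 36.0, 228, 241 and 260.0 and 23.8, 25.1 and 22.8 CPM) were all above those of run 2 (1.10, 0.393 and 1.23, 30.4, 19.5 and 23.1 and 2.05, 2.41 and 3.21 CPM), and run 1 served as the control. IFNGR1 was at 271, 283 and 280.3 CPM in run 1 wild type, 147, 141 and 146 in No gRNA and 97.4, 96.1 and 92.1 in run 2 wild type, and NFKB2 at 159.6, 153 and 154, 114, 122 and 117 and 77.2, 73.1 and 75.5. For CCL20, TNFAIP3, IFNGR1 and NFKB2, SUM159 No gRNA cells were thus below the wild type of run 1 and above that of run 2.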

How the results depend on the processing

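Of the members chosen by rule for full values, none changed direction under an alternative. Of 818 such values over 45 member-comparison pairs, 684 kept their side of the threshold, 107 passed it and 27 no longer did. Outside that choice, OAS3 turned from -1.04 to 0.48 in SUM159 with the wild type of run 2 as the control, passing the moderated test both ways. With that control the sign also turned for IFI6 (-0.17), XAF1 (-0.73), IRF7 (-1.28), BST2 (0.22) and IRF1 (0.09). None of these passed the moderated test against run 2 wild type. The number of members called depended most on the null hypothesis. In SUM159 with the vector, 10 were called higher by TREAT, 29 by the moderated test, 21 by that test with an absolute log2 fold change above 1, 18 by TREAT against log2(1.5) and 29 by edgeR's quasi-likelihood test, and 0 were called lower by TREAT against 1 by each of the moderated test (with or without the fold limit) and edgeR. In MDA-MB-231 the 5 called higher became 27, 13, 12 and 27, and 8 with glmTreat, and 1 was called lower by the moderated and edgeR tests. For gRNA 4, 0 lower became 13, 7, 5 and 12, and 1 with glmTreat, the DESeq2 threshold, DESeq2 size factors or library totals, and 0 higher became 1 by the moderated and edgeR tests. For All gRNA, 0 lower became 13, 5, 4 and 13, and 1 with glmTreat. For set 1, 0 lower became 12, 2, 3 and 13, and 1 with glmTreat or DESeq2, and 0 higher became 5, 1, 1 and 5. For set 2, 2 lower became 23, 10, 7 and 23, and 1 with DESeq2, no filter or only the groups compared, and 0 higher became 2, 1, 1 and 2. The moderated test called 27 for gRNA 4 against wild type (TREAT 10), 28 for All gRNA (10), 27 for set 1 (5), 19 for set 2 (1), 28 between runs (4), 28 between sets (2), 37 between wild type lines (19), and 22 and 18 for the vector and targeting interactions (7 and 0). In the same order, it called 46.8%, 48.7%, 59.5%, 36.3%, 58.8%, 51.5%, 73%, 36.2% and 25.4% of all genes. The vector interaction called 12 with run 2 wild type as the SUM159 control, an alternative chosen after seeing the data. Leaving out 1 library gave 9 to 11 higher in SUM159 and 3 to 6 in MDA-MB-231 with the vector, and 0 to 1 lower for gRNA 4, set 1 and set 2.

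Replicate numbers did not pair the samples: correlations of same-numbered deviations ran from -0.083 to 0.058 in SUM159 and from -0.052 to 0.04 in MDA-MB-231. With a replicate block, 1 member was called lower by TREAT for gRNA 4, 1 for set 1 and 1 for set 2. The cause of these changes was not tested. With 3 libraries a group, precision for genes under a few CPM, such as CXCL10, is low.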
